A study of Mus musculus with 10 samples.

Results

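The mitotic genes described here are 39 genes whose products act in the entry into, passage through and exit from cell division. They were taken by gene symbol from an expression table of 23240 genes, and all 39 symbols were matched. All 39 passed the filter on low values (at least 1 RPKM in at least 2 libraries), as did 10905 genes in all. RPKM is a read number scaled by gene length and by the total reads of the library, so it is a share of the library and not an amount per cell.

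The sequenced RNA came from progenitor cells of the bone marrow, and the donor mice all carried the vav-Cre transgene, which expresses Cre recombinase in blood cells. Wild-type animals had intact Runx1 (Runx1+/+), and Runx1-deleted animals had floxed Runx1 alleles (Runx1fl/fl). RUNX1 is a transcription factor of blood formation. All sorted cells were lin- sca- kit+ and also CD41- CD105-. GMP, the gate of granulocyte-monocyte progenitors, were CD16/32+ CD150-. MEP, the gate of megakaryocyte-erythroid progenitors, were CD16/32- CD150+. XMP were CD16/32+ CD150+ and were taken from Runx1-deleted marrow, with no wild-type counterpart. Each of the 5 groups (wild-type GMP, Runx1-deleted GMP, wild-type MEP, Runx1-deleted MEP, XMP) held 2 libraries. No label says that these came from separate animals, so p-values measure only the spread between these libraries, which may be technical. The age of the animals is not given in the labels. In RNA from many cells, fewer dividing cells and less of each RNA per cell cannot be told apart.

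Totals of 20.8 to 54.9 M reads per library were worked back from the RPKM values, and the mitotic genes had 158 to 41145 reads each in a library. The Runx1 level over the whole gene was 26.9 to 28.5 RPKM in GMP and 17.2 to 25.5 in MEP of wild-type marrow, and 63.0 to 72.3 in GMP, 36.8 to 41.5 in MEP and 78.5 to 85.9 in XMP of Runx1-deleted marrow. That value sums all exons of the gene and does not check the deletion, so "Runx1-deleted" stands for libraries so labelled. Markers of granulocyte-monocyte progenitors (8 genes, Mpo and Elane among them) summed to 12000 to 12200 RPKM in wild-type and 7840 to 8140 in Runx1-deleted GMP. In MEP they summed to 41.1 to 57.9 and in XMP to 157 to 188. Erythroid markers (9 genes) summed to 1370 to 1470 RPKM in MEP and 570 to 885 in XMP. In GMP they summed to 56.4 to 63.4 (wild-type) and 140 to 222 (Runx1-deleted). Megakaryocyte markers (8 genes) were highest in XMP, at 1480 to 1810 RPKM, against 661 to 889 in MEP. In GMP they summed to 41.0 to 48.9 (wild-type) and 130 to 145 (Runx1-deleted). Single markers did not all follow these sums. At an unadjusted p under 0.05 (limma), 5 of the 8 granulocyte-monocyte markers were lower and 2 higher in Runx1-deleted than in wild-type GMP. Of the 9 erythroid markers 4 were higher and 2 lower, and of the 8 megakaryocyte markers 4 were higher and 0 lower. Over all tested genes 22.8% had such a p in either direction. The part of these marker differences between the genotypes in the results for GMP was not tested. Libraries also differed in how they represented long and short genes. In the first wild-type MEP library, genes of at least 4619 bp stood 0.94 lower on the log2 scale, relative to genes of at most 1539 bp, than they did on average over the 10 libraries. This value was -0.31 and -0.38 for wild-type GMP and 0.00 to 0.51 in the other 7 libraries.

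Cells enter mitosis when the kinase CDK1, bound to cyclin B and freed of inhibitory phosphates by CDC25 phosphatases, reaches full activity. The kinetochore then ties chromosomes to the spindle, the checkpoint holds the anaphase-promoting complex (APC/C) until all are attached, and CDC20 with the enzyme UBE2C drives destruction of cyclin B. Most of these genes are transcribed late in the cell cycle, when the DREAM repressor gives way to B-MYB and FOXM1 at a promoter element called CHR (cell cycle genes homology region), often beside CCAAT boxes bound by NF-Y. Progenitors of the marrow divide often, and cells of the megakaryocyte lineage later replicate their DNA without dividing.

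RefSeq promoters (250 bases before to 50 bases after the gene start, build GRCm38.p6) were available for 33 of the 39 genes. Only the first listed promoter of each gene symbol was used, which gave 27025 promoters, and other promoters of a gene were not searched. The deposited table was made on mm9, so these coordinates belong to the promoter table alone. The CHR letters TTTGAA, searched on both strands, were in 25 of 33 promoters (75.8%), against 18.1% of the 27025 promoters of the table and 11.8% of the 7909 promoters of genes tested here. They lay within 50 bases of the gene start in 21 of 33 (63.6%), against 4.92% of all promoters. CCAAT, on both strands, was in 26 of 33 (78.8%) against 37.9%, and both motifs were in 22 (66.7%) against 7.12%. The variant TTCGAA was in 3 of 33 (9.09%) against 1.57%. Of 39 DNA replication genes with a promoter, 10.3% held TTTGAA and 61.5% held CCAAT. Of 62 other mitotic genes with a promoter, 51.6% held TTTGAA and 62.9% held CCAAT. A match is a description of the letters, not a bound site, and overlapping matches were counted each. The following 6 promoters are printed 5′ to 3′ on the strand of the gene. They are examples of genes whose levels are given below. Kif23 acts at the central spindle, Cenpa at the centromere, and Plk1 is the polo kinase. Cdc20 and Ube2c act in the exit from mitosis, and Mki67 is the common marker of cycling cells. Capitals mark TTTGAA and CCAAT on either strand (TTCAAA and ATTGG where the match is on the other strand).
Kif23 (chr9:61946750-61947049, minus strand): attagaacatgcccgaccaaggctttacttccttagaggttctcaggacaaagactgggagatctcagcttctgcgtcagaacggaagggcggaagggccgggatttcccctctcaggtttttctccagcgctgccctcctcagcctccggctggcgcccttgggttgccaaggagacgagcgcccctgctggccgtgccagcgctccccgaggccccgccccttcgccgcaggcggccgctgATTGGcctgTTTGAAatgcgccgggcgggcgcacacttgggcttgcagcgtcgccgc
Cenpa (chr5:30666636-30666935, plus strand): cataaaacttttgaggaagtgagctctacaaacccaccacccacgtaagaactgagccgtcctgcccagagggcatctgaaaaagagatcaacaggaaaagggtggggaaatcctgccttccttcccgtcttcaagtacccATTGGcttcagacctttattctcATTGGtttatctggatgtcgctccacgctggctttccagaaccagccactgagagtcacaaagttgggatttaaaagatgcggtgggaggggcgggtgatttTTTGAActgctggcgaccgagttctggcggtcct
Plk1 (chr7:122159185-122159484, plus strand): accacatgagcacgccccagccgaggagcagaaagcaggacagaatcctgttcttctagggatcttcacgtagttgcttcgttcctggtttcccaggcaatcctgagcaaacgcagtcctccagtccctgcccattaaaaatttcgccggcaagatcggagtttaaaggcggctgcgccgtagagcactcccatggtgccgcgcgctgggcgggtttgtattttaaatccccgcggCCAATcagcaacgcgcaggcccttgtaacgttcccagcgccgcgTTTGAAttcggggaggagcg
Cdc20 (chr4:118437294-118437593, minus strand): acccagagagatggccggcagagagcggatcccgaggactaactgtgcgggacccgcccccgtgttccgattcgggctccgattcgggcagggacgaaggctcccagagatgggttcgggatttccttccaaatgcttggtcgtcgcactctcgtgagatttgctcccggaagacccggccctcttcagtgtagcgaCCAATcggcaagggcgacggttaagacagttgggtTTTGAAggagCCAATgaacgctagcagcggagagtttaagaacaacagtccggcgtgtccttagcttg
Ube2c (chr2:164769679-164769978, plus strand): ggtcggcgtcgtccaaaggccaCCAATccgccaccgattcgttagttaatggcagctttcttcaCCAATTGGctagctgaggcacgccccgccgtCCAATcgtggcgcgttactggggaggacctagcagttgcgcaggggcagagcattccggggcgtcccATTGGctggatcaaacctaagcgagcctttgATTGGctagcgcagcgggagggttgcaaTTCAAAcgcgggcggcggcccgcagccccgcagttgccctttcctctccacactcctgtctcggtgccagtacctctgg
Mki67 (chr7:135716330-135716629, minus strand): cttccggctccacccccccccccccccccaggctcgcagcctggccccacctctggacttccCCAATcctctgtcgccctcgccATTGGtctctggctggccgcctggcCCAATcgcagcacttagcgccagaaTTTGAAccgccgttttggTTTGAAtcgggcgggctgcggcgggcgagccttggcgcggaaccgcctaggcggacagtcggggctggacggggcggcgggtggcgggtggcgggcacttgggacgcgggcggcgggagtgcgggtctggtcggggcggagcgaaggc
TTTGAA began 2 bases after the start in Kif23, 16 after it in Cenpa and 30 after it in Plk1. In Cdc20 it began 18 bases before the start and was followed by a CCAAT. Ube2c held 6 CCAAT matches, of which 1 on each strand overlapped, and Mki67 held 2 copies of TTTGAA at 116 and 98 bases before the start.

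The mean of log2(RPKM + 1) over the 39 genes was highest in both XMP libraries, at 4.87 and 4.46. In wild-type marrow it was 4.41 and 4.12 for GMP and 3.91 and 4.35 for MEP. In Runx1-deleted marrow it was 4.36 and 4.32 for GMP and 4.22 and 3.65 for MEP. Group means ± SD (n = 2) were 4.66 ± 0.29 in XMP, 4.34 ± 0.03 in Runx1-deleted GMP, 4.26 ± 0.20 in wild-type GMP, then 4.13 ± 0.31 in the wild-type MEP libraries and 3.93 ± 0.40 in the Runx1-deleted ones. Both XMP libraries thus lay above the other 8, but the second XMP library did so narrowly, and with median centring it was at 4.40 against 4.41 in the first wild-type GMP library. Apart from XMP, neighbouring groups in this order overlapped. Over all 10905 genes tested the mean ran from 3.45 to 3.68 per library.

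**Figure D1:**
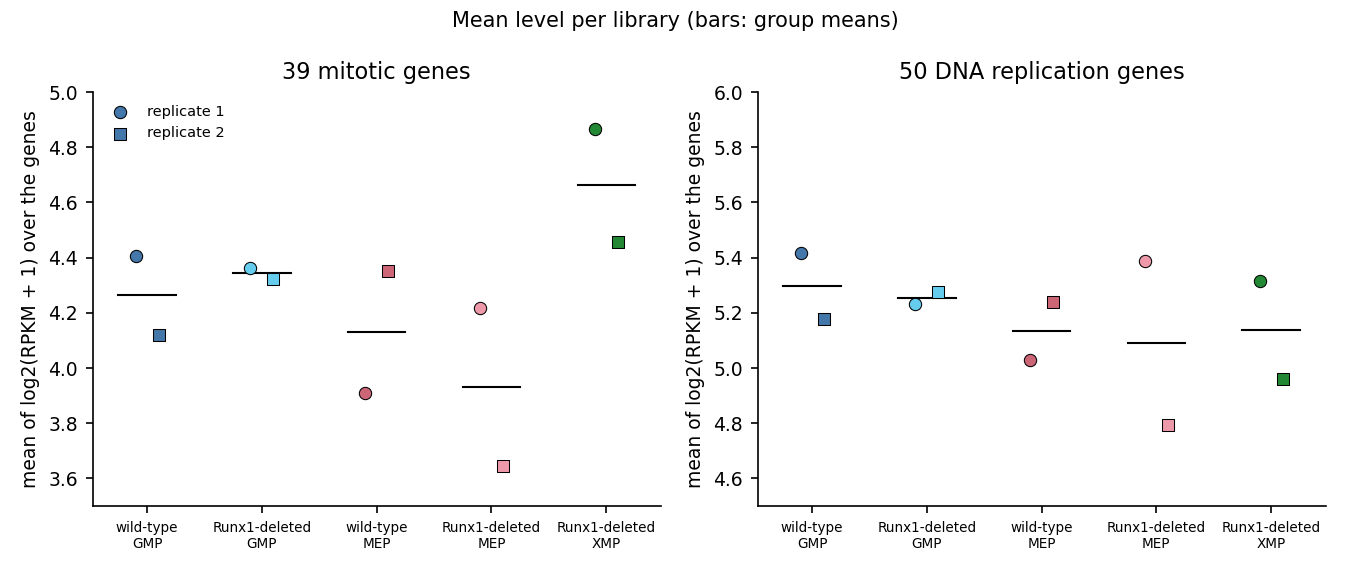
Mean of log2(RPKM + 1) per library over the 39 mitotic genes (left) and over 50 DNA replication genes (right), with circles and squares for replicates 1 and 2 and bars for group means. The axes do not start at 0 and have the same span. The mitotic genes are highest in XMP, at 4.87 and 4.46, while the replication genes of XMP, at 5.32 and 4.96, lie among those of the other groups.

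The replication genes, a list of 50 that includes the Mcm helicase and the DNA polymerases, did not share this order. Their mean was 5.32 and 4.96 in XMP, 5.23 and 5.28 in Runx1-deleted GMP, 5.39 and 4.79 in Runx1-deleted MEP, and, in wild-type marrow, 5.42 and 5.18 in GMP and 5.03 and 5.24 in MEP. The XMP libraries lay within the range of the other 8. The difference between the mitotic and the replication list was not tested.

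Single libraries carried much of the spread. The first XMP library had the highest level of 31 of the 39 genes, and the second Runx1-deleted MEP library had the lowest level of 27. The first wild-type MEP library had the lowest level of 11 others. All 39 genes were higher in the first than in the second XMP library (median 1.34-fold), where 65.6% of all tested genes were. All 39 were also higher in the first than in the second Runx1-deleted MEP library (median 1.46-fold, against 61.5% of all tested genes), as were all 50 replication genes (1.49-fold). In Runx1-deleted GMP the replicates were closest, with 27 of 39 genes higher in the first library and a median of 1.03-fold.

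**Figure D2:**
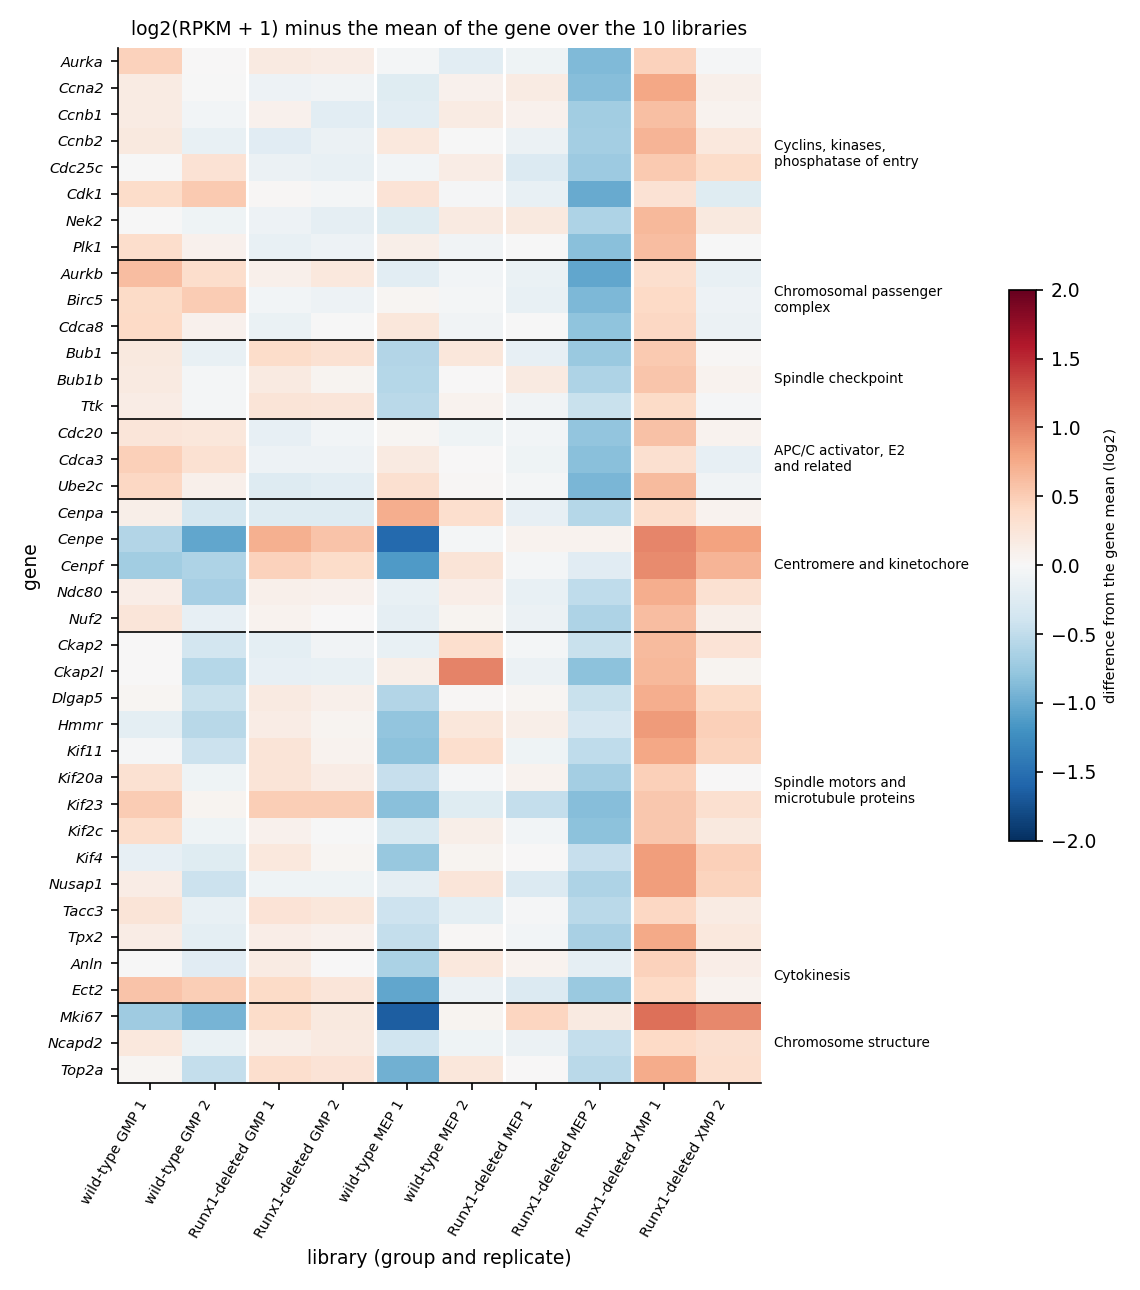
Heat map of the 39 mitotic genes (rows, grouped by role) in the 10 libraries (columns), showing log2(RPKM + 1) minus the mean of the gene over the libraries. The first XMP library is highest for 31 genes and the second Runx1-deleted MEP library lowest for 27, and Cenpe, Cenpf and Mki67 are lowest in the first wild-type MEP library.

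Among the regulators of mitotic entry, cyclin B1 and CDK1 form the kinase that drives mitosis. Ccnb1 was at 38.7 and 33.1 RPKM for GMP and 29.6 and 38.96 for MEP of wild-type marrow, and at 36.6 and 29.8 for GMP, 36.5 and 21.02 for MEP and 52.98 and 36.5 for XMP of Runx1-deleted marrow. Cdk1 was at 32.3 and 35.9 RPKM for GMP and 30 and 24.4 for MEP of wild-type marrow, and at 25.1 and 23.97 for GMP, 22.4 and 11.8 for MEP and 30.5 and 20.8 for XMP of Runx1-deleted marrow. Ccnb1 was thus highest in the first XMP library and lowest in the second Runx1-deleted MEP library, with overlapping groups, while Cdk1 was highest in wild-type GMP. Plk1 was at 31.4 and 25.9 RPKM for GMP and 26.6 and 23.1 for MEP of wild-type marrow, and at 21.9 and 22.5 for GMP, 24.2 and 13.2 for MEP and 37.7 and 24.2 for XMP of Runx1-deleted marrow. This polo kinase acts in spindle assembly and in cyclin B activation, and its first XMP library was the highest while the second lay within the range of the other groups. Cdc25c was at 5.38 and 6.79 RPKM for GMP and 5.15 and 6.10 for MEP of wild-type marrow, and at 4.86 and 4.75 for GMP, 4.28 and 2.84 for MEP and 8.19 and 7.20 for XMP of Runx1-deleted marrow. This phosphatase activates CDK1, and both XMP libraries were above all 8 others. The other genes of this role had their lowest level in the second Runx1-deleted MEP library. Cyclin A2 (Ccna2) ranged from 19.8 to 63.1 RPKM, cyclin B2 (Ccnb2) from 9.40 to 25.5 and the centrosome kinase Nek2 from 7.98 to 20.7, each highest in the first XMP library. Aurora A (Aurka), the kinase of the spindle poles, ranged from 12.2 to 32.8 and was highest in the first wild-type GMP library.

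Aurora B is the kinase of the chromosomal passenger complex, which corrects faulty attachments and guides cytokinesis. Aurkb was at 64.6 and 53.99 RPKM for GMP and 35.97 and 40.5 for MEP of wild-type marrow, and at 44.99 and 48.8 for GMP, 38.05 and 19.8 for MEP and 53.2 and 37.6 for XMP of Runx1-deleted marrow. Wild-type GMP were highest, and the XMP libraries overlapped the other Runx1-deleted groups. Its partners survivin (Birc5), at 8.56 to 24.4 RPKM, and borealin (Cdca8), at 25.7 to 61.6, were also lowest in the second Runx1-deleted MEP library. BUBR1, encoded by Bub1b, is part of the checkpoint complex that holds CDC20. Bub1b was at 36.4 and 30.9 RPKM for GMP and 21.2 and 31.9 for MEP of wild-type marrow, and at 36.3 and 33 for GMP, 36.1 and 20.5 for MEP and 47.5 and 33.7 for XMP of Runx1-deleted marrow. The first XMP library was highest here, and the second overlapped GMP and Runx1-deleted MEP. The checkpoint kinases Bub1, at 4.15 to 11.4 RPKM, and Ttk, at 1.44 to 3.63, were likewise highest in the first XMP library.

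CDC20 and UBE2C act with the APC/C to end mitosis. Cdc20 was at 68.2 and 66.8 RPKM for GMP and 59.01 and 53.6 for MEP of wild-type marrow, and at 50.8 and 55.03 for GMP, 54.8 and 32.7 for MEP and 86.1 and 60.2 for XMP of Runx1-deleted marrow. Ube2c was at 108 and 86.4 RPKM for GMP and 101 and 81.9 for MEP of wild-type marrow, and at 67.2 and 69.7 for GMP, 78.3 and 42.2 for MEP and 125 and 76.9 for XMP of Runx1-deleted marrow. Both genes were highest in the first XMP library and lowest in the second Runx1-deleted MEP library. Cdca3, which encodes an adaptor in the degradation of WEE1, ranged from 18.01 to 46.4 RPKM and was highest in the first wild-type GMP library. CENP-A is the histone H3 variant that marks centromeres, and NDC80 is the microtubule-binding part of the kinetochore. Cenpa was at 51.4 and 36.7 RPKM for GMP and 78.98 and 59.97 for MEP of wild-type marrow, and at 39.1 and 39.5 for GMP, 42.1 and 31.4 for MEP and 60.2 and 49.7 for XMP of Runx1-deleted marrow. Ndc80 was at 12.9 and 7.02 RPKM for GMP and 10.5 and 13.04 for MEP of wild-type marrow, and at 12.6 and 12.6 for GMP, 10.5 and 7.99 for MEP and 20.1 and 14.8 for XMP of Runx1-deleted marrow. Cenpa was highest in the first wild-type MEP library, where the second was close to the first XMP library. Ndc80 was highest in XMP, and its second wild-type GMP library was the lowest. Nuf2, the partner of NDC80, ranged from 12.0 to 29.6 RPKM, and Cenpe and Cenpf are described with the comparison in GMP.

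KIF11 is the motor that separates the spindle poles, TPX2 activates Aurora A on the spindle, and NUSAP1 bundles its microtubules. Kif11 was at 21.8 and 16.2 RPKM for GMP and 12.1 and 28.4 for MEP of wild-type marrow, and at 26.7 and 23.4 for GMP, 20.9 and 15.3 for MEP and 38.8 and 30.8 for XMP of Runx1-deleted marrow. Tpx2 was at 28 and 21.9 RPKM for GMP and 17.9 and 25.7 for MEP of wild-type marrow, and at 27.9 and 26.9 for GMP, 24.2 and 15.8 for MEP and 43.2 and 29.5 for XMP of Runx1-deleted marrow. Nusap1 was at 21.5 and 14.2 RPKM for GMP and 17 and 23.2 for MEP of wild-type marrow, and at 18.3 and 18.1 for GMP, 15.8 and 12.3 for MEP and 35.4 and 26.6 for XMP of Runx1-deleted marrow. All 3 genes were higher in both XMP libraries than in all 8 others. The remaining spindle motors and microtubule proteins (Kif2c, Kif4, Kif20a, Ckap2, Dlgap5, Hmmr and Tacc3) were highest in the first XMP library. Their levels ran from 4.82 RPKM (Hmmr in the first wild-type MEP library) to 48.1 (Tacc3). Topoisomerase IIα untangles sister chromatids, and NCAPD2 is a condensin subunit. Top2a was at 80.7 and 56.3 RPKM for GMP and 39.7 and 92.4 for MEP of wild-type marrow, and at 99.7 and 95.5 for GMP, 79.1 and 53.99 for MEP and 132 and 99.5 for XMP of Runx1-deleted marrow. Ncapd2 was at 64.4 and 50.7 RPKM for GMP and 42.2 and 52.5 for MEP of wild-type marrow, and at 60.2 and 63.4 for GMP, 51.3 and 39.6 for MEP and 73.6 and 69.4 for XMP of Runx1-deleted marrow. Both XMP libraries were highest for Ncapd2, whereas for Top2a the second, at 99.5, was level with the first Runx1-deleted GMP library, at 99.7. Ki-67, encoded by Mki67, coats mitotic chromosomes and is the common marker of cycling cells. Mki67 was at 27.02 and 22.9 RPKM for GMP and 13.6 and 46.5 for MEP of wild-type marrow, and at 58.1 and 51.4 for GMP, 60.7 and 51.1 for MEP and 97.6 and 87.7 for XMP of Runx1-deleted marrow. XMP were higher than all other libraries, and wild-type GMP and the first wild-type MEP library were lowest.

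Against Runx1-deleted MEP, all 39 genes were higher in XMP by group means. The median log2 difference was 0.74, or 1.67-fold on the log2(RPKM + 1) scale, with a range of 0.35 (Anln) to 1.08, against a median of 0.05 over all tested genes. In 28 of the 39 genes the groups did not overlap and XMP were higher, which held for 33.6% of all tested genes. None was lower without overlap (20.1% of all). Fitted with limma across all genes, 3 of the 39 rose at a Benjamini-Hochberg adjusted p under 0.05 and none fell, against 5.14% and 2.6% of all tested genes. At an unadjusted p under 0.05, 32 of the 39 were higher and none lower, while 19.8% of all tested genes had such a p in either direction.

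The 3 called genes were Nusap1, Kif23 and Cdc25c. Nusap1 rose by 1.08 ± 0.24 (log2 difference ± SE, adjusted p = 0.0191). Kif23, whose product MKLP1 is the motor of the central spindle, rose by 1.08 ± 0.25 (adjusted p = 0.0221). Cdc25c rose by 0.95 ± 0.21 (adjusted p = 0.0185). For all 3 genes, the XMP and Runx1-deleted MEP libraries did not overlap. Just outside the threshold came Ccnb2, which encodes cyclin B2 and is named after its values were seen, at 0.84 ± 0.24 (adjusted p = 0.056), and, among the genes followed in every comparison, Ncapd2, at 0.65 ± 0.19 (adjusted p = 0.0686), Tpx2, at 0.84 ± 0.26 (adjusted p = 0.082), and Ndc80, at 0.84 ± 0.27 (adjusted p = 0.0875). By role, the median difference was 0.81 for the 12 spindle genes and 0.81 for the 5 centromere and kinetochore genes. It was 0.75 for Cdc20, Ube2c and Cdca3, 0.72 for the 3 chromosome structure genes and 0.71 for the 8 genes of mitotic entry. The 3 passenger genes had a median of 0.67, the 2 cytokinesis genes 0.55 and the 3 checkpoint genes 0.54. The differences of the single genes had a median SE of 0.27, and no difference between roles was tested.

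The size of this difference turned on 1 library of each group. Without the second Runx1-deleted MEP library, the lowest of the series, all 39 genes were still higher in XMP, but the median was 0.43, none was called with limma and 3 had an unadjusted p under 0.05. Without the first XMP library the median was 0.50, none was called and 4 had an unadjusted p under 0.05, and without the second XMP library 1 was called. Without the first Runx1-deleted MEP library the median was 1.04, and after a trend with gene length was removed it was 0.70. The share of all tested genes called with a library left out is not given, so these counts show only how the calls moved. Summed megakaryocyte markers were higher in XMP (1480 to 1810 RPKM) than in Runx1-deleted MEP (661 to 781), with 7 of 8 genes higher without overlap. Summed erythroid markers were lower (570 to 885 against 1370 to 1410), with 6 of 9 genes lower and 2 higher without overlap. Summed granulocyte-monocyte markers were higher (157 to 188 against 41.1 to 41.6), with all 8 genes higher without overlap. Their part in the result was not tested.

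**Figure D3:**
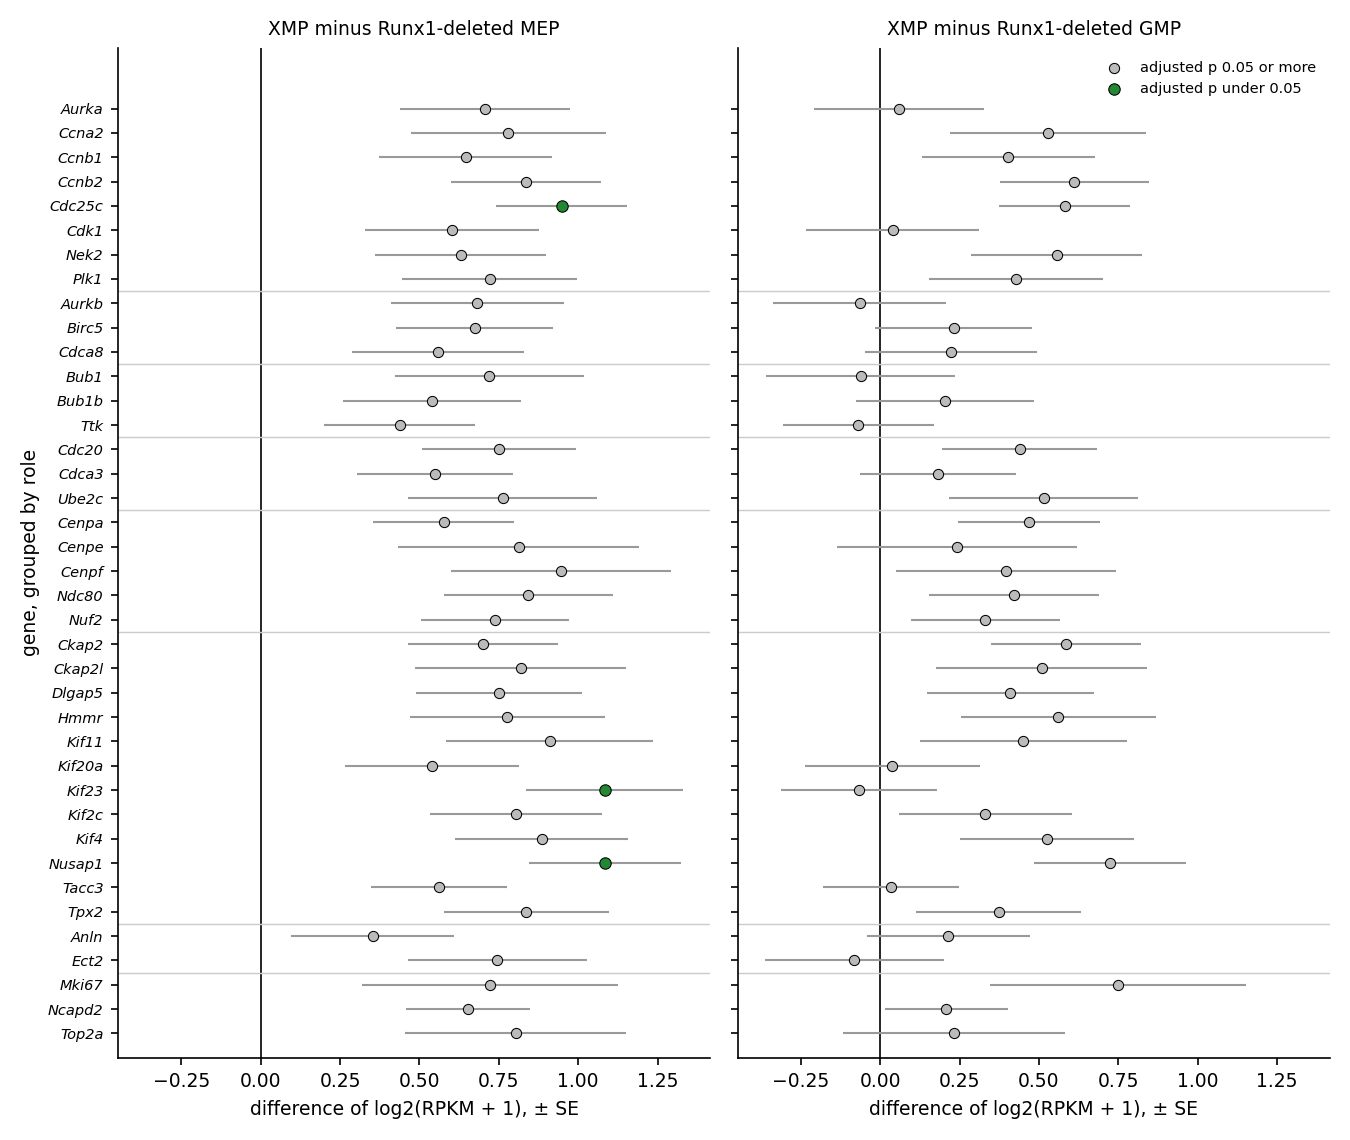
Difference of log2(RPKM + 1) ± SE for each of the 39 mitotic genes, XMP minus Runx1-deleted MEP (left) and XMP minus Runx1-deleted GMP (right), with genes grouped by role and green points for an adjusted p under 0.05. All 39 differences are above 0 on the left, from 0.35 to 1.08, and 34 of 39 on the right.

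Against Runx1-deleted GMP, 34 of the 39 genes were higher in XMP, with a median difference of 0.37 (0.05 over all tested genes). The groups did not overlap in 23 genes, all higher in XMP, against 37.4% of all tested genes higher and 28.6% lower. With limma none passed an adjusted p under 0.05, against 9.75% of all tested genes higher and 9.9% lower, and 4 had an unadjusted p under 0.05, against 28.2% of all tested genes. The genes of lowest p, named after their values were seen, were Nusap1, at 0.72 ± 0.24 (adjusted p = 0.058), and Cdc25c, at 0.58 ± 0.21 (adjusted p = 0.0786). Mki67 stood at 0.75 ± 0.40 (adjusted p = 0.27), although its values did not overlap. Genes of the checkpoint and of cytokinesis were near 0: Bub1b was at 0.20 ± 0.28, Ect2 at -0.08 ± 0.28 and Anln at 0.21 ± 0.26. Kif23 (-0.07 ± 0.25), Cdk1 (0.04 ± 0.27) and Aurkb (-0.07 ± 0.27) were near 0 as well. Without the first XMP library 26 of 39 genes were higher and the median was 0.16. XMP and Runx1-deleted GMP differed far more in granulocyte-monocyte markers (157 to 188 against 7840 to 8140 RPKM) and in megakaryocyte markers (1480 to 1810 against 130 to 145), and the part of this in the result was not tested.

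Mitotic genes outside the 39, a list of 78, were read in the same 2 comparisons, which share the XMP libraries. Against Runx1-deleted MEP, 75 of 78 were above 0 with a median of 0.53, and 12 rose and none fell (5.14% and 2.6% of all tested genes). Of these the largest rises were those of Fam64a (1.89 ± 0.22, adjusted p = 0.000645), Cep55 (1.55 ± 0.20, adjusted p = 0.00135) and Depdc1b (1.21 ± 0.27, adjusted p = 0.019). CEP55 brings the abscission machinery to the midbody at the end of cytokinesis. Against Runx1-deleted GMP, 63 of 78 were above 0 with a median of 0.23, and 5 rose and none fell (9.75% and 9.9% of all tested genes), led by Psrc1 (0.99 ± 0.21, adjusted p = 0.00472). Of 50 replication genes, limma called none in either comparison, and 1 (lower) and 0 had an unadjusted p under 0.05 (19.8% and 28.2% of all tested genes). Their medians were 0.05 against Runx1-deleted MEP and -0.12 against Runx1-deleted GMP. Of the 22 transcriptional regulators, Foxm1 alone rose against Runx1-deleted MEP, by 1.08 ± 0.26 (adjusted p = 0.0259), where 5.14% of all tested genes rose. Foxm1 was at 15.5 and 9.72 RPKM for GMP and 8.30 and 11.4 for MEP of wild-type marrow, and at 14.9 and 16.6 for GMP, 9.86 and 6.73 for MEP and 20.2 and 16.7 for XMP of Runx1-deleted marrow. Both XMP libraries were thus the highest of the series, the second narrowly. Rb1 (1.20 ± 0.25, adjusted p = 0.0053) and E2f7 (0.87 ± 0.27, adjusted p = 0.0422), a pocket protein and a repressor of E2F targets, rose against Runx1-deleted GMP. They were 2 of the 22, where 9.75% of all tested genes rose. None of 12 cohesin genes was called with limma in either comparison, and 1 of 12 had an unadjusted p under 0.05 in each. Over all tested genes that share was 19.8% against Runx1-deleted MEP and 28.2% against Runx1-deleted GMP. Among 16 APC/C subunits and regulators tested, 1 rose against Runx1-deleted GMP, where 9.75% of all tested genes did. It was Fzr1, the second activator of the APC/C (0.74 ± 0.19, adjusted p = 0.0154).

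Between the GMP and MEP gates, the genes of the 39 that passed the test were Kif23 and Ect2. In wild-type marrow, Ect2 and Kif23 rose in GMP over MEP and none of the 39 fell, against 11.7% and 9.83% of all tested genes. At an unadjusted p under 0.05, 3 of the 39 were higher and 2 lower, against 31.5% of all tested genes in either direction. ECT2 is the exchange factor that activates RhoA at the division plane, where the centralspindlin complex of MKLP1 and RACGAP1 recruits it. Ect2 was at 16.1 and 15.1 RPKM for GMP and 4.62 and 9.60 for MEP of wild-type marrow, and at 14.1 and 12.7 for GMP, 8.53 and 5.89 for MEP and 14.2 and 11.1 for XMP of Runx1-deleted marrow. Kif23 was at 7.004 and 4.86 RPKM for GMP and 2.14 and 3.79 for MEP of wild-type marrow, and at 6.93 and 6.93 for GMP, 3.07 and 2.13 for MEP and 7.17 and 6.02 for XMP of Runx1-deleted marrow. Neither gene overlapped between GMP and MEP of the same genotype, and both XMP libraries lay above all 4 MEP libraries. Ect2 was 1.11 ± 0.28 higher in wild-type GMP than in wild-type MEP (adjusted p = 0.0154), and Kif23 was 0.82 ± 0.25 higher (adjusted p = 0.0353). Over all 39 genes the median difference was 0.15, 28 were above 0, and 9 were higher and 2 lower without overlap (22.0% and 27.1% of all tested genes). The calls were 2 higher and 1 lower with quantile normalization and 3 higher and 1 lower with the length trend removed. The share of all tested genes called under these settings is not given. Over 21 alternative settings the call of Ect2 was lost in 5 and that of Kif23 in 8. Without the first wild-type MEP library the differences of Ect2 and Kif23 were smaller, at 0.65 and 0.52. The median over the 39 genes was then -0.01, with 17 above 0. Without the second wild-type MEP library that median was 0.41, and without the first wild-type GMP library it was 0.01.

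In Runx1-deleted marrow, 38 of the 39 genes were higher in GMP than in MEP, with a median of 0.37, and 23 were higher and none lower without overlap (31.7% and 36.0% of all tested genes). Kif23 alone rose and none fell, against 14.1% and 10.4% of all tested genes, and 7 of the 39 had an unadjusted p under 0.05, against 33.4% of all tested genes. The difference of Kif23 was 1.15 ± 0.25 (adjusted p = 0.00486), and without the second Runx1-deleted MEP library it was 0.96 (adjusted p = 0.0551). Ect2 stood at 0.83 ± 0.28 (adjusted p = 0.055). Without that library the median over the 39 genes was 0.12, 24 were above 0 and none was called with limma (1 at an unadjusted p under 0.05). Without the first Runx1-deleted MEP library that median was 0.68. Of the 78 other mitotic genes 7 rose and none fell in Runx1-deleted GMP over MEP (14.1% and 10.4% of all tested genes). The largest rises were those of Cep55 (1.60 ± 0.20, adjusted p = 0.000117), Fam64a (1.28 ± 0.22, adjusted p = 0.000915) and Racgap1 (0.98 ± 0.23, adjusted p = 0.00912). In wild-type GMP over MEP, 1 of the 78 rose, Cep55 (0.67 ± 0.20, adjusted p = 0.0361), and 1 fell, Psrc1 (-0.67 ± 0.21, adjusted p = 0.0387). Of all tested genes 11.7% rose and 9.83% fell there. Cep55 was at 9.05 and 6.89 RPKM for GMP and 3.95 and 5.34 for MEP of wild-type marrow, and at 10.3 and 9.82 for GMP, 2.88 and 2.45 for MEP and 10.4 and 9.03 for XMP of Runx1-deleted marrow. Its 4 MEP libraries were the lowest of the series. Anln, which encodes the actin-binding ring protein anillin and ranged from 1.02 to 3.32 RPKM over all libraries, was at 0.09 ± 0.26 in wild-type and 0.14 ± 0.26 in Runx1-deleted marrow.

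**Figure D4:**
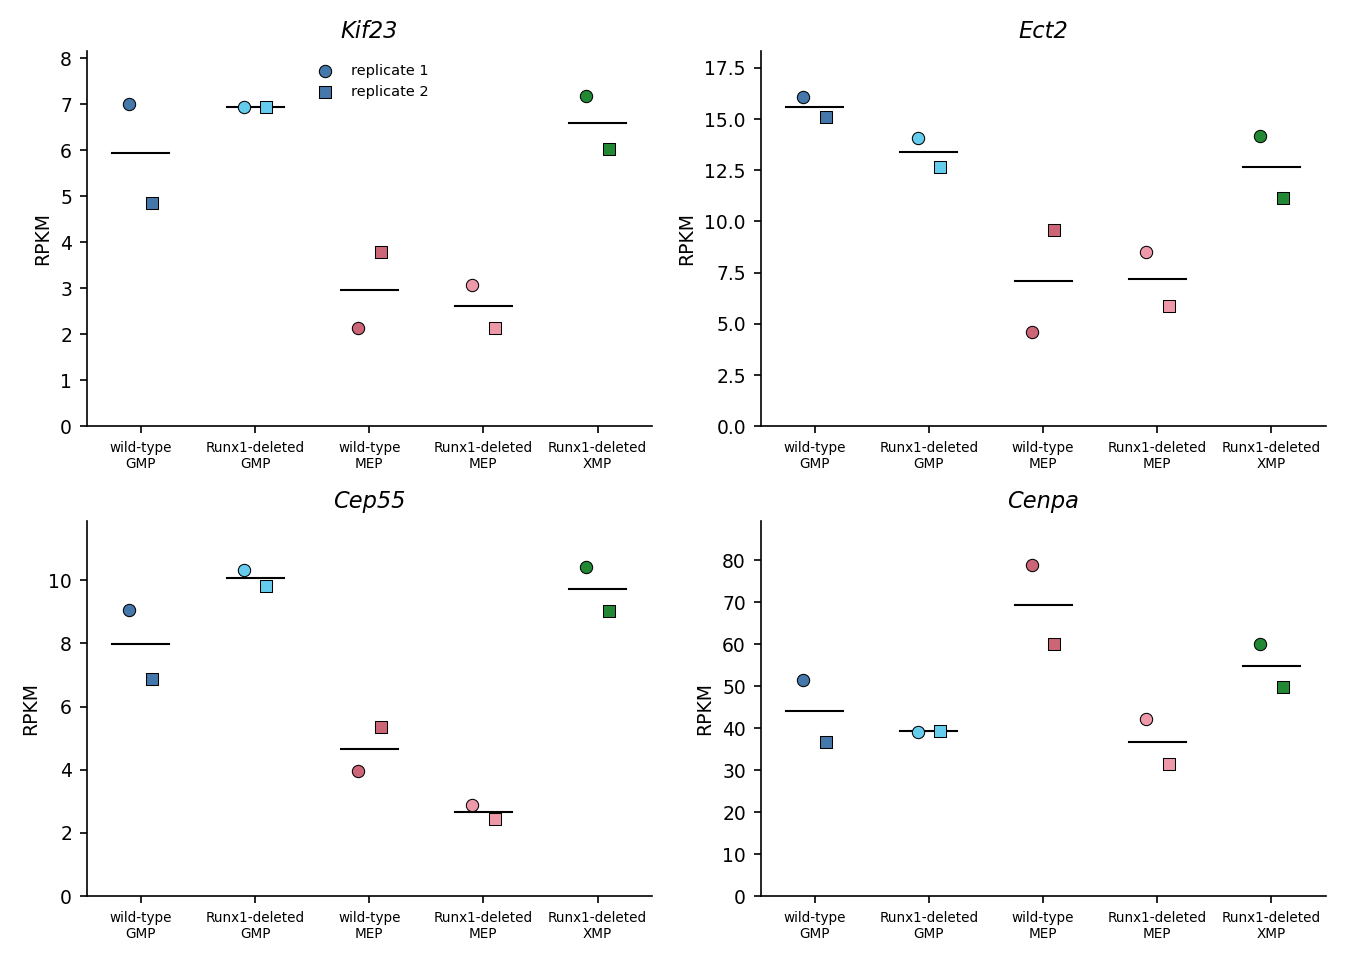
RPKM of Kif23, Ect2, Cep55 and Cenpa in each library, by group, with circles and squares for replicates 1 and 2 and bars for group means, on axes that start at 0. Kif23, Ect2 and Cep55 are lower in all 4 MEP libraries than in GMP and XMP, and Cenpa is highest in wild-type MEP.

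Between Runx1-deleted and wild-type GMP the 39 genes had no common direction. The median difference was 0.05, equal to that over all tested genes (0.05), and 21 genes were above 0. With median centring the median was -0.06 and 17 genes were above 0, and with the length trend removed the median was -0.05. With limma none passed an adjusted p under 0.05, against 3.15% of all tested genes higher and 2.07% lower, and 3 had an unadjusted p under 0.05, against 22.8% of all tested genes. The groups did not overlap in 23 genes, 11 higher and 12 lower in Runx1-deleted GMP (37.2% and 29.4% of all tested genes). The 3 genes of lowest p, named here after their values were seen except Mki67, were also the 3 longest of the 39. All 3 were above an adjusted p of 0.05. The number called changed when either 1 of the wild-type MEP libraries, which do not enter the comparison, was left out, while the median stayed at 0.05. Cenpe, the kinetochore motor CENP-E, was at 1.46 ± 0.38 (adjusted p = 0.051), Mki67 at 1.10 ± 0.40 (adjusted p = 0.142) and Cenpf, a kinetochore protein, at 1.08 ± 0.35 (adjusted p = 0.105). Cenpe was at 3.87 and 2.55 RPKM for GMP and 1.51 and 6.17 for MEP of wild-type marrow, and at 11.03 and 9.93 for GMP, 6.73 and 6.71 for MEP and 13.4 and 11.8 for XMP of Runx1-deleted marrow. Cenpf was at 2.34 and 2.52 RPKM for GMP and 1.47 and 5.44 for MEP of wild-type marrow, and at 6.48 and 5.98 for GMP, 4.27 and 3.63 for MEP and 9.43 and 7.68 for XMP of Runx1-deleted marrow. In both genes the 2 wild-type GMP libraries were well below the Runx1-deleted ones. At the other end, Ube2c, the shortest gene, was at -0.49 ± 0.30, Cdk1 at -0.46 ± 0.27, Cdc20 at -0.35 ± 0.24, Plk1 at -0.35 ± 0.28 and Aurkb at -0.33 ± 0.27, none of them called.

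The difference followed gene length across the 39 genes. Lengths worked back from the RPKM values ran from 931 bp (Ube2c) to 11122 bp (Cenpf). The correlation of the log2 difference with log2 length over the 39 genes, which share the same 4 libraries, was 0.80 (Pearson) and 0.75 (Spearman) in GMP. For Runx1-deleted against wild-type MEP it was 0.80 and 0.81. Spearman values over all 10905 tested genes were 0.46 and 0.45. In GMP the 9 genes longer than 4500 bp had a median of 0.39 and the 30 shorter ones -0.10. In MEP these medians were 0.12 and -0.34. In the comparisons of XMP and of the gates Pearson values were -0.03 (XMP against Runx1-deleted GMP), 0.15 (XMP against Runx1-deleted MEP), 0.02 (wild-type GMP against MEP) and 0.13 (Runx1-deleted GMP against MEP). After a length trend over all genes was removed, Cenpe was 1.10 ± 0.22 higher in Runx1-deleted GMP (adjusted p = 0.0198), Mki67 was at 0.67 ± 0.23 (adjusted p = 0.115) and Ube2c at -0.16 ± 0.21. The wild-type GMP libraries came from sequencing lanes 3 and 2 and both Runx1-deleted ones from lane 5, so lane and genotype cannot be told apart in GMP.

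**Figure D5:**
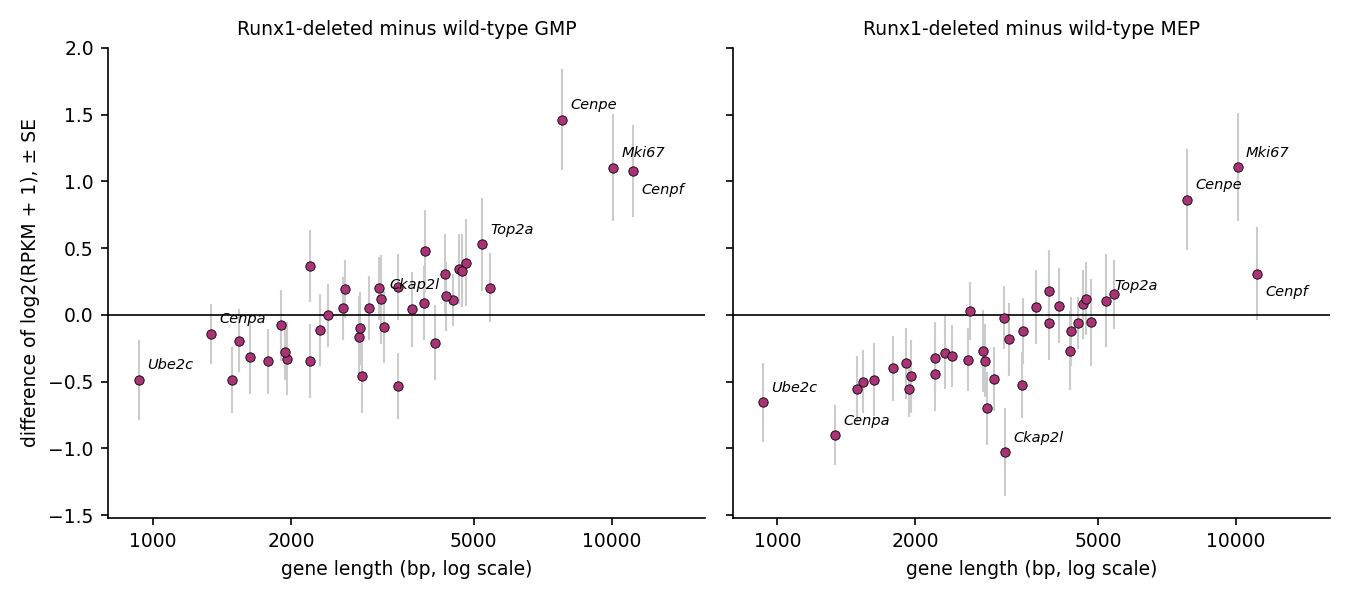
Difference of log2(RPKM + 1) ± SE between Runx1-deleted and wild-type GMP (left) and MEP (right) against gene length on a log axis, 1 point for each of the 39 mitotic genes. Short genes such as Ube2c lie below 0 and the longest, Cenpe, Mki67 and Cenpf, above it, and Ckap2l and Cenpa lie lowest in MEP.

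Between Runx1-deleted and wild-type MEP, 28 of the 39 genes were lower, with a median of -0.27, against 0.03 over all tested genes. Cenpa alone fell and none rose, against 4.03% and 3.97% of all tested genes, and 7 of the 39 had an unadjusted p under 0.05, against 22.1% of all tested genes. The groups did not overlap in 2 higher and 9 lower genes (21.6% and 21.0% of all tested genes). Cenpa fell by 0.90 ± 0.22 on the log2 scale (adjusted p = 0.0316), from 79.0 and 59.97 RPKM to 42.1 and 31.4. Without the first wild-type MEP library it was at -0.71 (adjusted p = 0.169), and without the second Runx1-deleted MEP library at -0.70 (adjusted p = 0.259). The same Cenpa difference in GMP was -0.14 ± 0.22. Ckap2l was at 20.1 and 13.1 RPKM for GMP and 21.7 and 40.6 for MEP of wild-type marrow, and at 17.6 and 17.8 for GMP, 18.2 and 10.8 for MEP and 31.6 and 20.7 for XMP of Runx1-deleted marrow. This gene, which encodes a microtubule protein and was named after its values were seen, was at -1.03 ± 0.33 (adjusted p = 0.0934), and its second wild-type MEP library was the highest of the series. Cdk1 was at -0.70 ± 0.27 (adjusted p = 0.162) and Ube2c at -0.65 ± 0.30 (adjusted p = 0.228). Mki67 was at 1.11 ± 0.40 (adjusted p = 0.137), with wild-type levels of 13.6 and 46.5 that differed more from each other than the second did from the Runx1-deleted levels of 60.7 and 51.1. Without the second Runx1-deleted MEP library the median over the 39 genes was 0.07 and 23 were above 0, so the direction of the median rested on that library. Without the first Runx1-deleted MEP library the median was -0.56. It was -0.40 without the first wild-type MEP library and -0.09 without the second. Outside the 39, 1 of the 78 other mitotic genes fell in MEP, Fam64a (-1.21 ± 0.22, adjusted p = 0.00592), and none rose. Of the 22 regulators 1 fell, E2f8 (-0.86 ± 0.22, adjusted p = 0.0332), an atypical E2F repressor, and 1 rose, E2f2 (0.91 ± 0.20, adjusted p = 0.0159). Of all tested genes 4.03% fell and 3.97% rose.

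The Runx1 difference was more positive in GMP than in MEP for 35 of the 39 genes, with a median of 0.24 for the difference of the 2 differences. With limma none passed an adjusted p under 0.05, against 0.954% of all tested genes higher and 0.789% lower, and 2 had an unadjusted p under 0.05, against 10.1% of all tested genes. These were Ckap2l, at 1.14 ± 0.47 (adjusted p = 0.401), and Cenpa, at 0.76 ± 0.32 (adjusted p = 0.408). Without the second Runx1-deleted MEP library the mean over the 39 genes was -0.01, and without the first it was 0.56. Without the first wild-type MEP library the median over the 39 genes was 0.42.

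In the authors' deposited table, which gives FDR-corrected p-values of Baggerley's test between groups, Mki67 alone of the 39 was under 0.05 between Runx1-deleted and wild-type GMP (7.17e-06), where 0.925% of all 23240 genes were. In the authors' deposited table none of the 39 was under 0.05 between Runx1-deleted and wild-type MEP (0.775% of all genes), where Cenpa came closest at 0.0543. Between XMP and Runx1-deleted MEP the authors' deposited table had 5 under 0.05 (Mki67, Ncapd2, Nusap1, Kif11 and Top2a) against 1.64% of all genes. These shares are over all 23240 genes, of which 3904 were at 0 in every library, while all 39 passed the filter on low values. They are therefore not shares of expressed genes alone. Between XMP and Runx1-deleted GMP it was Mki67 alone in the authors' deposited table (0.000104), against 3.74% of all genes. For GMP against MEP the authors' deposited table had none of the 39, in wild-type (3.1% of all genes) or Runx1-deleted marrow (4.6%). Of the genes called with limma against Runx1-deleted MEP, Nusap1 was thus under 0.05 in the authors' deposited table (0.0087), and Kif23 (0.988) and Cdc25c (1.0) were not.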

How the data were processed

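The deposited table gives RPKM per gene and library, made by the authors, and p-values with FDR correction of Baggerley's test, per the file headers. Per the submitters' processing notes, reads were placed on mm9. Which aligner and counter were used is not given in the sources used here. Libraries were made with a TruSeq or a NEBNext kit, per the labels' protocols, which do not say which library had which. Lanes are those in the labels. Read numbers, gene lengths and depths were worked back from the RPKM values: 19335 genes gave whole reads within 0.01 of a read in every library, 1 did not and 3904 were at 0. For 1627 genes the length was settled with a gene annotation. Libraries held 20.8 to 54.9 M reads.

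Values were tested as log2(RPKM + 1), which understates changes of low genes, with limma 3.58.1 (R 4.3.3) over the 10905 genes at 1 RPKM or more in at least 2 libraries. All 10 libraries entered 1 fit with 5 residual degrees of freedom, and p-values were adjusted by Benjamini and Hochberg over all 10905 genes. The procedure was tested on simulated data. The 39 genes and the other lists were chosen with earlier results of these data known. In each comparison full statistics were given for up to 4 called genes in each direction and for 16 fixed genes of the 8 roles. Of other lists at most 3 called genes were named per comparison. Alternatives were another pseudocount, filter and scaling, a removed length trend, other spread estimates, the groups compared alone, lanes 4 and 5 alone, a replicate block and each library left out.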

Additional observations from a re-analysis of the deposited data

How the results depend on the processing

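With 2 libraries a group the number of mitotic genes called moved with most settings, and the cause was not tested. All 5 groups shared 1 estimate of the spread. With either wild-type MEP library left out, the median for XMP against Runx1-deleted MEP stayed at 0.74 while the number called changed. Log2 differences between the 2 replicates had an SD over the 39 genes of 0.534 in wild-type MEP. In the other groups this SD was 0.095 to 0.231. The share of all tested genes called under each setting is not given here. The counts below thus show only how the calls moved. The median over the 39 genes between Runx1-deleted and wild-type MEP was -0.27, and -0.40 with lanes 4 and 5 alone. That setting drops the first wild-type MEP library, from lane 3, and both wild-type GMP libraries. Wild-type MEP then held 1 library, and the median was the same, -0.40, when only the first wild-type MEP library was left out. For Runx1-deleted against wild-type GMP the count was 1 with quantile normalization, median centring or the length trend removed, 5 with the groups compared alone, 3 with group weights and 2 with the length trend removed and no first wild-type MEP library, a setting chosen after seeing the data. For Runx1-deleted against wild-type MEP it was 2 with quantile normalization, median centring or the length trend removed, and 0 with group weights, no filter or only the groups compared. For XMP against Runx1-deleted GMP it was 3 with quantile normalization or lanes 4 and 5 alone, 1 with median centring, 5 with the length trend removed (6 with no first wild-type MEP library as well), and 9 with either group weights or the groups compared alone. For XMP against Runx1-deleted MEP it was 13 with quantile normalization or lanes 4 and 5 alone, 21 with the length trend removed (21 with no first wild-type MEP library as well), 19 with group weights and 0 with no filter. For wild-type GMP against MEP it was 4 with the length trend removed, 1 with the groups compared alone and 0 with no filter or with group weights. For Runx1-deleted GMP against MEP it was 6 with quantile normalization or only the groups compared, 3 with median centring, 8 with the length trend removed (10 with no first wild-type MEP library as well), 10 with group weights and 5 with lanes 4 and 5 alone.

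With each library left out in turn, the count ranged from 0 to 3 for Runx1-deleted against wild-type GMP, 0 to 4 for the same in MEP, 0 to 2 for the difference between those effects, 0 to 3 for XMP against Runx1-deleted GMP, 0 to 13 for XMP against Runx1-deleted MEP, 1 to 5 for wild-type GMP against MEP and 0 to 6 for Runx1-deleted GMP against MEP. The mean log2 difference over the 39 genes ranged from -0.008 to 0.563 for the difference between the Runx1 effects and from 0.45 to 1.02 for XMP against Runx1-deleted MEP. Cenpe and Mki67, at -0.03 and -0.02 between wild-type GMP and MEP, were at -0.79 (adjusted p = 0.0192) and -0.88 (adjusted p = 0.00958) without the first wild-type MEP library and at 0.73 (adjusted p = 0.0244) and 0.83 (adjusted p = 0.0113) without the second.

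Replicate numbers are shared between groups, but the labels tie them to no common animal or day, and deviations of same-numbered libraries correlated from -0.47 to 0.78 over the 10 pairs of groups. With the replicate number as a block, 3 genes were called for Runx1-deleted GMP against MEP, 4 for XMP against Runx1-deleted MEP and 3 for wild-type GMP against MEP, and the other counts did not move.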

Other observations

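Inhibitors of the cell cycle, a list of 16 tested genes chosen with earlier results known, were called in both directions in XMP. Against Runx1-deleted MEP 6 rose and 1 fell (limma, adjusted p under 0.05), against 5.14% and 2.6% of all tested genes. Ccng2, an atypical cyclin, rose by 1.13 ± 0.20 on the log2 scale (adjusted p = 0.00602), and Btg2, an antiproliferative factor, rose by 1.04 ± 0.21 (adjusted p = 0.0111). Gadd45a, a stress-response gene, fell by 1.69 ± 0.21 (adjusted p = 0.0011). Against Runx1-deleted GMP 4 rose and 1 fell, against 9.75% and 9.9% of all tested genes. Gadd45g rose from 6.48 ± 1.30 to 82.1 ± 20.8 RPKM (SD, n = 2), and Gadd45b fell from 13.7 ± 1.77 to 1.80 ± 0.09. Cdkn2d, which encodes the CDK4 inhibitor p19INK4d, rose from 8.75 ± 0.58 to 28.1 ± 2.12 RPKM.

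Cohesin genes, a list of 12, were higher in Runx1-deleted GMP in 12 of 12 and in Runx1-deleted MEP in 11 of 12, with medians of 0.58 and 0.46. With limma none was called, and 5 and 3 had an unadjusted p under 0.05, against 22.8% and 22.1% of all tested genes. The mean log2 level of the list was 3.407 and 4.503 in the 2 wild-type MEP libraries and 4.414 and 4.445 in the Runx1-deleted ones. The second wild-type MEP library thus lay above both Runx1-deleted ones, and the MEP difference rested on the first. With the length trend removed these medians were 0.37 and 0.23.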
